A study of Caenorhabditis elegans with 6 samples.

Results

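The 10 genes described here, tra-1, tra-2, fem-1, fem-2, fem-3, fog-1, fog-2, fog-3, her-1 and xol-1, set the sex of the body and the sperm or oocyte fate of germ cells in the nematode Caenorhabditis elegans. They were taken by gene symbol from 25478 named genes on the array, and each of the 10 was represented by 1 transcript cluster, a set of probes for 1 transcribed locus. RNA of whole wild-type N2 animals, labelled as L4 hermaphrodites, was measured on 6 arrays in 2 groups of 3. All animals came from a synchronised L1 culture, grew on agar plates with bacteria for 48 h until they were L4 larvae, and were moved for 24 h at 20 °C into 50% M9, a salt buffer. Control animals had the buffer alone, and C-SPION animals had the buffer with 500 µg/mL of superparamagnetic iron oxide nanoparticles coated with citrate. Nothing in the labels tells whether samples of 1 group were separate cultures, so the p-values rest on a spread that may be technical.

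In this pathway the ratio of X chromosomes to autosomes sets the activity of XOL-1, and XOL-1 decides whether the secreted protein HER-1 is made. HER-1 holds the membrane receptor TRA-2 inactive in males; in hermaphrodites TRA-2 is free to restrain the FEM proteins, which otherwise mark the transcription factor TRA-1 for destruction. TRA-1 directs female development, and in the germ line it represses fog-1 and fog-3, the last genes of the chain before sperm fate. A hermaphrodite makes sperm as a larva and oocytes as an adult, because FOG-2 with GLD-1 first lowers TRA-2 in the germ line, and the FBF proteins and their partners later lower FEM-3. Much of this control acts on translation and protein stability, which RNA signals do not measure.

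No member differed between the groups by the test across all clusters. By limma, a linear model that shares spread between clusters, 0 of the 10 members had an adjusted p under 0.05, and 0 of the 26192 named clusters had one (0%). At an unadjusted p under 0.05 the count was also 0 of 10 members, beside 3280 clusters or 12.5% of the background. The adjusted p of the members ran from 0.432 to 0.798. All 10 members had a higher mean with C-SPIONs, as did 53.3% of all clusters. Relative to the mean of 20 germ line marker genes on the same array, all 10 were lower. That marker mean was itself higher by 0.69 with C-SPIONs, more than any member, so the subtraction fixed this direction in advance. The members' differences ran from 0.17 to 0.60 on the log2 scale, or 1.12-fold to 1.52-fold, with a median of 0.23 beside a median of 0.04 over all named clusters. The 95% intervals reached 0.44 to 0.68 to either side of each difference, so differences of the size seen could not be separated from the spread of 3 arrays. A change in the number of cells of a type and a change in RNA per cell cannot be told apart in RNA of whole animals.

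**Figure D1:**
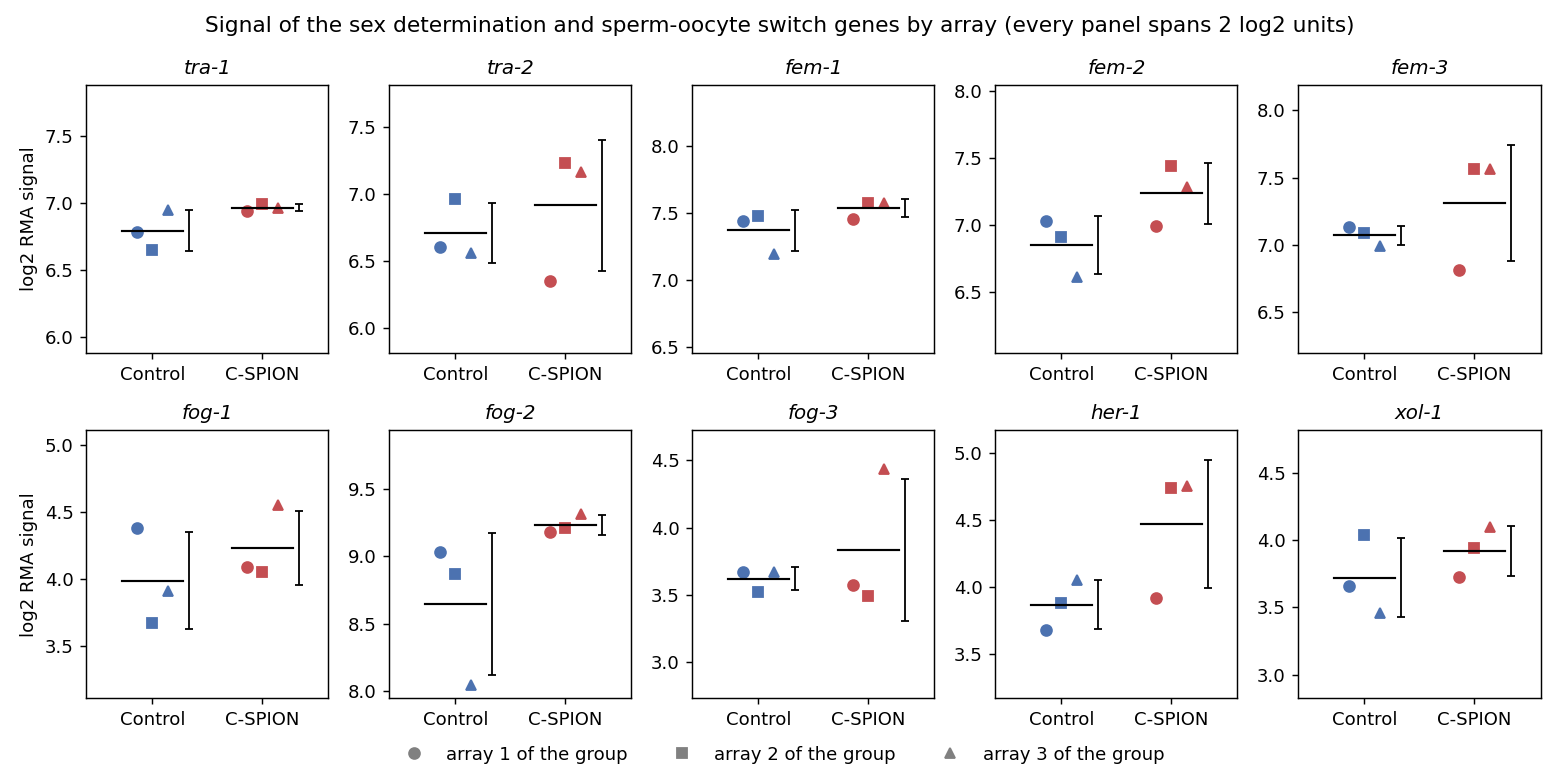
Log2 RMA signal (vertical axis) of each gene in the 3 control and 3 C-SPION arrays; symbols mark the array number within a group, horizontal lines the group means and error bars the SD (n = 3). Only for fog-2 do the 3 C-SPION values, 9.18 to 9.32, all lie above the 3 control values, 8.04 to 9.03.

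The data behind these values were log2 RMA signals, with Pearson correlations between arrays of 0.935 to 0.968 across clusters, which are not independent replicates. Of the members, tra-1, tra-2, fem-1, fem-2, fem-3 and fog-2 had means over the 6 arrays of at least 5 on the log2 scale and passed the filters on dim clusters. The other 4, fog-1, fog-3, her-1 and xol-1, had means from 3.73 to 4.17 and did not pass; RMA compresses differences near background, and detection calls were not used here. Markers of male neurons and tail, used to check the hermaphrodite label, were dim: all 11 had means under 5. Their mean level ran from 3.65 to 3.77 in controls and from 3.56 to 3.90 with C-SPIONs. Differences with 1 array left out are given below for each member where they moved by over 1.5 times.

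At the top of the pathway, xol-1 acts as the switch gene that is on in XO embryos and off in XX animals (cluster 18604242). Its signal was 3.66, 4.04 and 3.46 in controls 1 to 3 and 3.73, 3.94 and 4.10 in C-SPION 1 to 3. The groups overlapped, with control 2 second only to C-SPION 3. The means were 3.72 ± 0.29 and 3.92 ± 0.19 (SD, n = 3), a log2 difference of 0.20 with a 95% interval from -0.34 to 0.75 (limma adjusted p = 0.744). It was 0.07 without control 3, 0.12 without C-SPION 3 and 0.36 without control 2.

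The ligand gene her-1 had the smallest p of the 10 (cluster 18581225). Its signal was 3.68, 3.88 and 4.05 in controls and 3.92, 4.74 and 4.75 with C-SPIONs. C-SPION 2 and 3 lay above every control, whereas C-SPION 1 lay inside the control range. The means were 3.87 ± 0.19 and 4.47 ± 0.48 (SD, n = 3), a difference of 0.60, or 1.52-fold, with an interval from -0.06 to 1.26 (limma adjusted p = 0.432; exact two-sided permutation p = 0.2). Without C-SPION 1 the difference was 0.88 and the limma adjusted p was 0.181.

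A gene with a profile close to that of her-1 need not belong to the same pathway, and 14 of 25477 other genes lay within a root mean square difference of 0.1 log2 units over the 6 arrays after each profile was centred. The closest were Y57A10C.11 at 0.067, mbd-2 at 0.068, clec-73 at 0.080, K02D7.7 at 0.081 and rga-3 at 0.084. In mbd-2 the signals were 7.46, 7.78 and 7.82 in controls and 7.66, 8.43 and 8.46 with C-SPIONs, with C-SPION 1 again among the controls.

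The receptor gene tra-2 encodes the membrane protein that HER-1 binds (cluster 18494197). Its signal was 6.60, 6.96 and 6.56 in controls and 6.35, 7.23 and 7.16 with C-SPIONs. C-SPION 1 was the lowest and C-SPION 2 the highest of all 6 arrays, so the C-SPION group enclosed the controls. The means were 6.71 ± 0.22 and 6.91 ± 0.49 (SD, n = 3), a difference of 0.21 with an interval from -0.48 to 0.89 (limma adjusted p = 0.798). That value rested on single arrays, being 0.05 without C-SPION 2, 0.08 without C-SPION 3, 0.13 without control 3, 0.33 without control 2 and 0.49 without C-SPION 1. For tra-3, a calpain protease gene whose product cleaves TRA-2, the means were 7.31 ± 0.37 and 7.56 ± 0.13 (SD, n = 3), a difference of 0.25.

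The FEM genes act together in a ubiquitin ligase that marks TRA-1: FEM-1 is the ankyrin-repeat protein that recognises the substrate, FEM-2 is a protein phosphatase and FEM-3 is their partner. For fem-1 (cluster 18552096) the signals were 7.44, 7.48 and 7.20 in controls and 7.46, 7.58 and 7.58 with C-SPIONs. Control 3 was the lowest, and C-SPION 1 lay between controls 1 and 2. The difference was 0.17 with an interval from -0.28 to 0.61 (limma adjusted p = 0.743), and it was 0.08 without control 3.

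For fem-2 (cluster 18527851) the signals were 7.03, 6.91 and 6.61 in controls and 6.99, 7.44 and 7.28 with C-SPIONs. The overlap came from control 1 and C-SPION 1, which differed by less than the SD of either group. The means were 6.85 ± 0.22 and 7.24 ± 0.23 (SD, n = 3), a difference of 0.39, or 1.31-fold, with an interval from -0.13 to 0.91 (limma adjusted p = 0.505).

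For fem-3 (cluster 18532863), the gene whose RNA the FBF proteins bind at the switch to oocytes, the signals were 7.13, 7.09 and 6.99 in controls and 6.81, 7.56 and 7.56 with C-SPIONs. The controls were close together, C-SPION 1 was the lowest array and the other C-SPION arrays were the highest. The means were 7.07 ± 0.07 and 7.31 ± 0.43 (SD, n = 3), a difference of 0.24 with an interval from -0.37 to 0.85 (limma adjusted p = 0.730). Without C-SPION 1 it was 0.49 with a limma adjusted p of 0.317, and without C-SPION 2 or C-SPION 3 it was 0.115. Averaged over the 3 FEM genes and taken relative to the control mean, C-SPION 1 stood at -0.01, C-SPION 2 at 0.43 and C-SPION 3 at 0.38, with the controls from -0.16 to 0.10.

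The terminal regulator tra-1 encodes a zinc-finger transcription factor of the Gli family (cluster 18529642). Its signal was 6.78, 6.65 and 6.95 in controls and 6.94, 6.99 and 6.96 with C-SPIONs. The 3 C-SPION arrays lay within a narrow band, and control 3 fell inside it. The means were 6.79 ± 0.15 and 6.96 ± 0.03 (SD, n = 3), a difference of 0.17 with an interval from -0.27 to 0.61 (limma adjusted p = 0.735), and 0.10 without control 2.

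Among the genes that act in the germ line, fog-2 encodes an F-box protein that allows hermaphrodites to make sperm (cluster 18578054). Its signal was 9.03, 8.87 and 8.04 in controls and 9.18, 9.21 and 9.32 with C-SPIONs. It was the only member whose groups did not overlap, 1 of 10, where 9.4% of all clusters were separated in the same direction. The means were 8.65 ± 0.53 and 9.24 ± 0.07 (SD, n = 3), a difference of 0.59, or 1.51-fold, with an interval from -0.09 to 1.27 (limma adjusted p = 0.448; exact two-sided permutation p = 0.1, the smallest that 3 against 3 arrays allow). Control 3 set much of that size, as the difference was 0.29 without it. Control 3 was also the lowest array for the germ line markers, at -0.41 relative to the control mean; its part in the fog-2 value was not tested.

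The gene next to fog-2 in the RefSeq table is its close paralogue ftr-1, which has its own cluster (18578048). Its signal was 8.15, 8.22 and 7.95 in controls and 8.39, 8.64 and 8.73 with C-SPIONs, again without overlap. The difference was 0.48 with an interval from 0.01 to 0.95 (limma adjusted p = 0.392). Probe sequences were not used here, so signal shared between these clusters cannot be told apart from signal of each gene, and both values are uncertain in that respect.

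The genes fog-1 and fog-3 encode RNA regulators of the CPEB and Tob families that act at the end of the chain to specify sperm. For fog-1 (cluster 18462626) the signals were 4.38, 3.67 and 3.91 in controls and 4.09, 4.05 and 4.55 with C-SPIONs. Control 1 lay above 2 of the C-SPION arrays. The difference was 0.24 with an interval from -0.38 to 0.86 (limma adjusted p = 0.732). It was 0.083 without C-SPION 3, 0.085 without control 2 and 0.44 without control 1.

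For fog-3 (cluster 18451257) the signals were 3.67, 3.52 and 3.67 in controls and 3.57, 3.49 and 4.44 with C-SPIONs. Only C-SPION 3 stood apart, and C-SPION 2 was the lowest of the 6 arrays. The difference was 0.21 with an interval from -0.47 to 0.90 (limma adjusted p = 0.789; exact two-sided permutation p = 0.9), and without C-SPION 3 it was -0.09. Without C-SPION 1 it was 0.345 and without C-SPION 2 it was 0.385.

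Most of the members shared an order of arrays, by a small margin in some. In 7 of the 10, namely tra-1, tra-2, fem-1, fem-2, fem-3, fog-2 and her-1, both C-SPION 2 and C-SPION 3 lay above every other array, which was so for 16.5% of all clusters. For tra-1 this rested on C-SPION 3 at 6.96 against control 3 at 6.95. The count was taken after the values were seen and is a description. The order was not particular to the members, as most of the 20 germ line markers had it too. The mean of those markers stood at 0.45, 0.82 and 0.80 in C-SPION 1 to 3 relative to the control mean. In 9 of the 10 C-SPION 1 lay below the highest control, fog-2 being the exception, and in 3 (tra-2, fem-3 and fog-3) it lay below the control mean. The shares of all clusters with these positions were not counted, so neither count can be called particular to the members. The mean of the 10 stood at 0.04, 0.36 and 0.51 in C-SPION 1 to 3 relative to the control mean, with controls 1 to 3 at 0.08, 0.04 and -0.12. The median difference of 0.23 was 0.13 without C-SPION 3 and 0.42 without C-SPION 1. Leaving out C-SPION 1 put 2 members, fem-3 and her-1, at an unadjusted p under 0.05, beside 4129 of the 26192 clusters. Leaving out control 1 put fog-2 there, beside 2692 of the clusters. In either case 0 members passed after adjustment.

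Markers of the germ line and of its products were also mostly higher in the C-SPION arrays. The mean level of the 20 germ line markers ran from 6.88 to 7.51 in controls and from 7.75 to 8.11 with C-SPIONs, and relative to the control mean the C-SPION arrays stood at 0.45, 0.82 and 0.80. All 20 had a higher mean, 12 of them at an unadjusted p under 0.05. That level and direction was reached by 5.22% of all clusters. The median difference of the 20 was 0.76, and it ran from 0.54 (without control 3) to 0.87 (without C-SPION 1). Of 20 measured oocyte markers, 18 were higher (11 at that level, median 0.67), and their mean level ran from 7.72 to 8.24 and from 8.46 to 8.84. The oocyte median ran from 0.46 (without control 3) to 0.77 (without control 1). Of 23 sperm markers, 18 were higher, against 53.3% of all clusters, with 4 at that level and a median of 0.39. Their mean levels ran from 4.60 to 4.69 in controls and from 4.85 to 5.21 with C-SPIONs. Their differences ran from -0.54 to 1.33, and 14 of the 23 had means under 5, below the filter on dim clusters. Neuron markers lay the other way, with 13 of 13 lower and a median of -1.03. Of these, 9 had an unadjusted p under 0.05, where 7.3% of all clusters were lower at that level. Of 11 muscle markers, 10 were lower, 3 of them at that level, with a median of -0.57. Among all 26192 clusters, 12222 were lower. Intestine and yolk markers had a median of 0.08, which ran from -0.00083 (without C-SPION 2) to 0.16 (without control 3). Male markers had one of 0.04, which ran from -0.10 (without C-SPION 1) to 0.20 (without C-SPION 2). None of these genes passed after adjustment, and the part of tissue composition in the members' values was not tested.

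**Figure D2:**
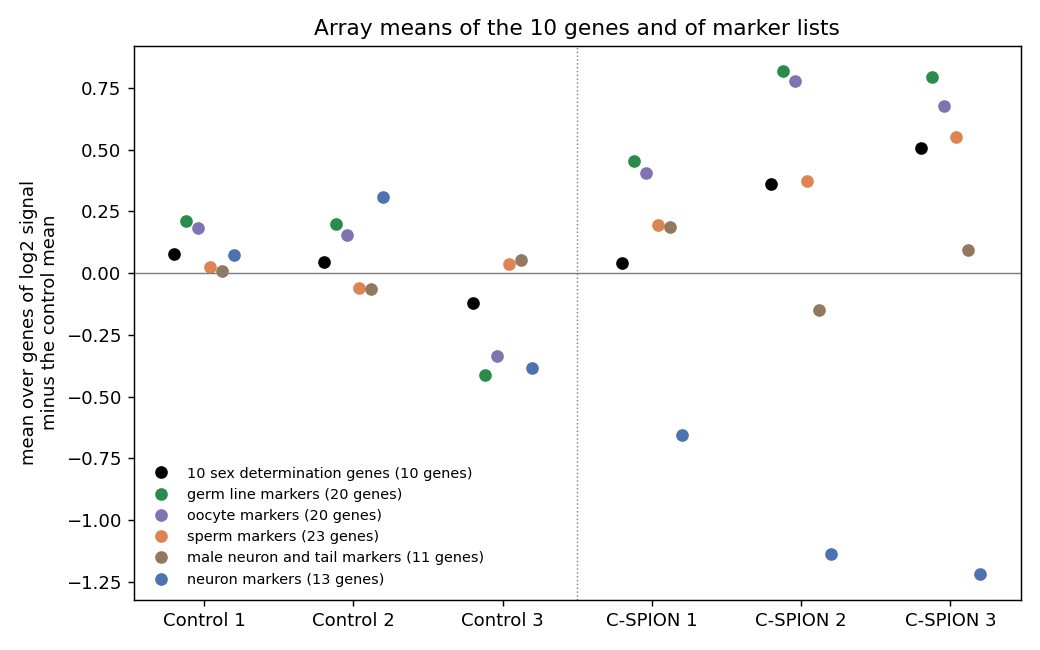
Mean over the genes of each list of the log2 signal minus that gene's control mean (vertical axis), for each of the 6 arrays (horizontal axis); 1 point is 1 list on 1 array. The 10 sex determination genes (black) stand at 0.04 in C-SPION 1 and at 0.36 and 0.51 in C-SPION 2 and 3, below the germ line markers (green) in each of these arrays.

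Read relative to the germ line markers, every member was lower with C-SPIONs. When the mean of the 20 markers was subtracted on each array, all 10 differences were negative, from -0.52 for fem-1 and tra-1 to -0.10 for fog-2 and -0.089 for her-1. In the fit across all clusters on that scale 0 of the 10 passed, with limma adjusted p from 0.196 to 0.847, and 0 of the 10 intervals excluded 0. For fem-1 the interval ran from -1.15 to 0.10, and for her-1 from -0.88 to 0.70. Because the markers' own mean was higher with C-SPIONs, subtracting it shifts every value down by the same amount, and the order of the members is the same on both scales.

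**Figure D3:**
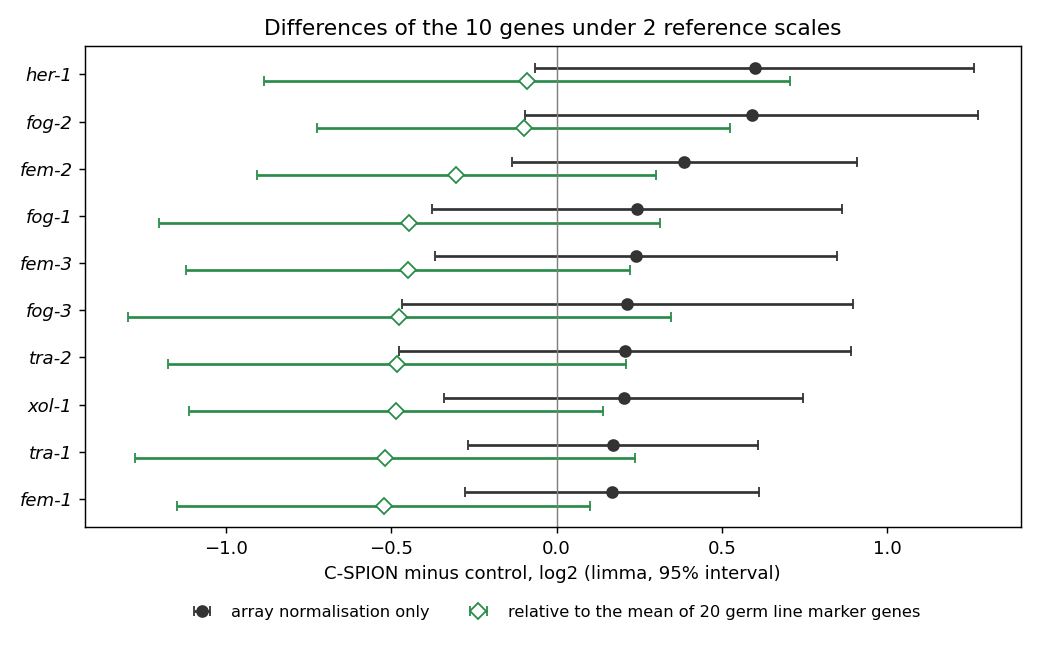
Difference between C-SPION and control means on the log2 scale (horizontal axis) for each gene, with 95% intervals from limma (n = 3 arrays a group); filled circles use the arrays as normalised by the authors, open diamonds subtract the mean of 20 germ line markers on each array. All 20 intervals include 0, the circles lie between 0.17 and 0.60 and the diamonds between -0.52 and -0.089.

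Genes that count the X chromosome or compensate its dose were mostly higher. Of 13 measured, 11 were higher and 6 of these had an unadjusted p under 0.05, beside the 53.3% and 5.22% of all clusters. Their median difference was 0.49. The largest was sdc-1, a zinc-finger gene of the group that represses her-1 and starts dosage compensation in XX animals. Its signal was 4.56, 4.36 and 4.05 in controls and 5.09, 5.65 and 5.49 with C-SPIONs, a difference of 1.09 with an interval from 0.52 to 1.66 (limma adjusted p = 0.264). The condensin subunit genes dpy-26, dpy-28 and mix-1 were at 0.83, 0.65 and 0.83, each with groups that did not overlap and limma adjusted p from 0.298 to 0.340. Of the 13 genes, 5 had all C-SPION values above the controls, beside 9.4% of all clusters. The other genes of the sdc group had values on both sides of 0, with sdc-2 at -0.21 and sdc-3 at 0.24; these were picked after their values were seen.

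The regulators that set the sperm or oocyte fate through RNA in the germ line were also mostly higher. Of 26 measured, 25 were higher, beside 53.3% of all clusters, and 10 of them had an unadjusted p under 0.05, beside 5.22%. In 15 the C-SPION values all lay above the controls, beside 9.4% of all clusters. The median difference was 0.52, and it ran from 0.37 (without control 3) to 0.65 (without control 1). For nos-3, a Nanos-family partner of FBF, the signals were 8.35, 8.39 and 8.11 in controls and 8.94, 9.14 and 8.87 with C-SPIONs. All 3 C-SPION arrays lay above the controls, by a mean of 0.70 with an interval from 0.24 to 1.16 (limma adjusted p = 0.302). For gld-3, a Bicaudal-C homologue that opposes FBF, the difference was 0.69 (interval 0.12 to 1.26, limma adjusted p = 0.344), and for mog-4, an RNA helicase gene needed for the switch to oocytes, it was 1.03 (interval 0.15 to 1.92, limma adjusted p = 0.354). The oocyte maturation gene oma-1 was at 0.83. Both oma-1 and oma-2 were also counted among the oocyte markers, and nos-3 among the germ line markers.

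For gld-1, the translational repressor that works with FOG-2 on tra-2 RNA, the signals were 9.54, 9.73 and 9.44 in controls and 9.78, 10.16 and 10 with C-SPIONs. The groups lay apart, with a difference of 0.41 and an interval from -0.07 to 0.89 (limma adjusted p = 0.449). The Pumilio-family genes fbf-1 and fbf-2 had differences of 0.47, with an interval from -0.67 to 1.6, and of 0.72, with one from -0.04 to 1.47. Control 3, at 5.16 and 4.93, was the lowest array for both. The helicase gene mog-1 was at 0.35 (interval -0.09 to 0.79).

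Of 10 further sex determination factors, 8 were higher and 3 of these had an unadjusted p under 0.05, beside 53.3% and 5.22% of all clusters. Their median was 0.27, or 0.17 without control 1. Beside ftr-1 these were laf-1, a DEAD-box helicase gene, at 0.70 and cul-2, the cullin of the ligase that the FEM proteins join, at 0.55, with limma adjusted p of 0.319 and 0.386. The next smallest p was that of sel-10, an F-box gene, at 0.33.

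At the output of the pathway, 0 of 9 reported TRA-1 target genes had an unadjusted p under 0.05, beside 12.5% of all clusters. In direction 8 of 9 were higher, beside 53.3% of all clusters. The median was 0.20, and it was 0.085 without control 2 and 0.107 without C-SPION 3. Of the 9, 5 had means under 5, mab-3 among them, and 3 are the members fog-1, fog-3 and xol-1. For mab-3, a DM-domain gene that TRA-1 represses in hermaphrodites, the signals were 4.84, 4.05 and 4.69 in controls and 4.83, 3.83 and 4.13 with C-SPIONs. The groups overlapped, with a difference of -0.26 and an interval from -1.05 to 0.53 (limma adjusted p = 0.774). The cell death activator egl-1, which TRA-1 represses in the hermaphrodite-specific neurons, was at 0.32, and cdh-9, a cadherin gene, at 0.30.

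**Figure D4:**
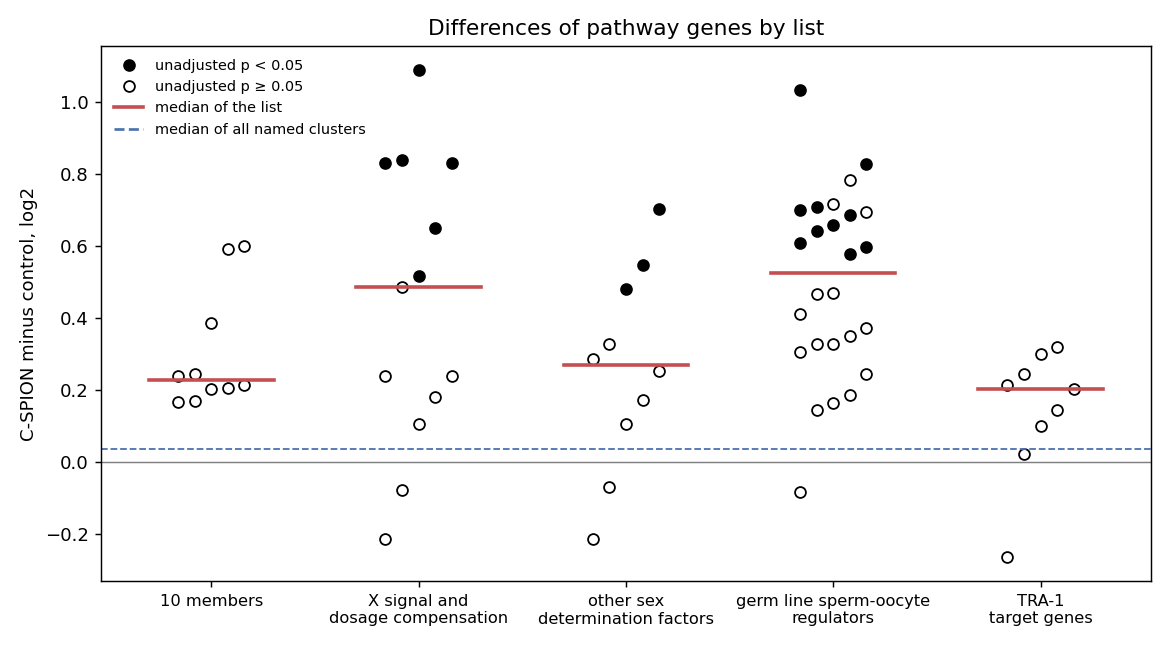
Difference between C-SPION and control means on the log2 scale (vertical axis) for every measured gene of the 10 members and of 4 lists of pathway genes; filled points have an unadjusted limma p under 0.05, red bars are list medians and the dashed line is the median of all named clusters. The members hold 0 filled points, and the germ line regulators and the X signal and dosage compensation genes hold 10 and 6; none of the genes shown passed after adjustment.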

How the data were processed

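The authors deposited log2 signals, 1 for each cluster and array. Per the submitters' processing notes the tools were RMA and Affymetrix Expression Console, with no version given in the sources used here. RMA puts arrays on 1 scale, so a change of total RNA per animal is not seen, and precision is limited by having 6 arrays. The third control was identified by its title. Symbols came from the platform annotation, updated by gene identifier to the RefSeq table of WBcel235 (25495 of 25546 clusters with 1 symbol matched). The 26192 clusters with a symbol were fitted with limma 3.58.1 in R 4.3.3 (group as the only term, eBayes, Benjamini-Hochberg over all of them, two-sided, threshold 0.05); the fit was tested on simulated data. A gene was read at its brightest cluster. The members and lists were chosen with earlier results of these data known. All members were named, as were up to 4 genes of each described pathway list by smallest unadjusted p, some sentinel genes, and the 5 genes most like her-1 in profile. Lists are described by counts and medians; of marker lists, summaries are given.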

Additional observations from a re-analysis of the deposited data

How the results depend on the processing

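Alternatives left each member's direction and call as reported in 131 of 142 member values. Leaving out 1 array moved fog-3 between -0.09 (without C-SPION 3) and 0.39, the median of the 10 members between 0.13 and 0.42, the number of members at an unadjusted p under 0.05 between 0 and 2, and the clusters at that level between 1988 and 4129, from 3280. Clusters past the adjusted threshold ran from 0 to 63, the latter without C-SPION 1, with 0 members among them. Array weights gave 5108 clusters and 1 member, her-1, at an unadjusted p under 0.05, and the filter at a mean of 6 gave 2030 clusters. Relative to the germ line marker mean 0 members were higher, with a median of -0.46: fem-1 and tra-1 at -0.52, xol-1 at -0.49, tra-2 and fog-3 at -0.48, fem-3 and fog-1 at -0.45, fem-2 at -0.30, fog-2 at -0.10 and her-1 at -0.089; subtracting a list that was itself higher shifts every value down by construction. The replicate block put 1 member, her-1, and 3414 clusters at an unadjusted p under 0.05 and changed no adjusted call. The titles' numbers share no stated source, and deviations from the group means correlated at 0.22, 0.20 and 0.01 for pairs 1 to 3. Arrays 1 and 2 of either group were closest to their own number, and array 3 of either group was not. Median centring and quantile normalisation changed no direction or call of a member. Fitting all 29317 clusters, and eBayes with trend and robust, changed no call. Like the replicate block and the filters, these fits cannot alter a member's difference, so its direction was fixed in advance. The 131 values include them. Below the filters, fog-1, fog-3, her-1 and xol-1 had no value, and averaging clusters of a gene was not run, since each member had 1. Without detection calls, signal over background is unknown for those 4.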
